A study of Setaria viridis with 24 samples.

Results

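The stem of drought-grown Setaria viridis seedlings at 9 days after sowing was compared with the stem of watered seedlings at 6 days. Setaria viridis is a small wild grass with C4 photosynthesis and a close relative of foxtail millet. The 2 groups differ in age and in water supply at once, and the comparison asked whether the older drought stem had stayed near the younger state or had reached a state of its own. Its members are all 18431 genes in the deposited table that sets these 2 groups against each other, of 20865 genes listed anywhere in the series. Plants of both groups grew in a mix of sand and peat, and per the labels 20 plants were pooled for each library. Drought and watered stems at 9 and at 6 days had 3 libraries each, as did the matching crowns, the shoot base below the stem, so that the series holds 8 groups and 24 libraries. The labels used here do not say how many days each group had been without water before harvest and name no mutant or transgene. The sequences of the genes were not used here.

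In a grass seedling the stem region holds the young shoot axis with the bases of the growing leaves, where cells divide and elongate before they mature. The crown at the foot of the shoot carries the nodes from which shoot-borne roots grow, and the growth of these roots depends on water in the upper soil. Water deficit in grasses slows shoot growth and induces protective genes through the hormone abscisic acid and through pathways that do not need it.

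All levels are FPKM, fragments per length of transcript and number of mapped fragments, 1 value per group that the authors computed from its 3 libraries. The spread between libraries was not analysed here, the depth per library is unknown, and no standard deviation can be given. A gene is called higher or lower where the authors' q-value, which they adjusted over the 28 pair tables together, was under 0.05. The labels call the 3 libraries of a group biological repeats, and how their plants were kept apart is not described there. The gene identifiers carry no description, so that roles of single genes, and markers of stem tissue, could not be checked. Levels of a gene in a mixed tissue do not show whether fewer cells held its RNA or each cell held less, since these cannot be told apart in bulk samples.

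The drought day 9 stem differed from the watered day 6 stem in 3876 called genes, more of them lower than higher. Of the 18431 genes, 1525 were called higher in the drought day 9 stem (8.27%) and 2351 lower (12.8%), so that 60.7% of the called genes were lower. The other 14555 genes were not called. The called higher genes had a median log2 fold change of 1.28, with a median level of 15.7 FPKM in drought day 9 stems and 5.94 FPKM in watered day 6 stems. For the called lower genes the median log2 fold change was -1.28, at 12.4 FPKM in drought day 9 stems and 30.7 FPKM in watered day 6 stems. Changes of at least 8-fold with both groups above 0 FPKM were found in 80 higher and 32 lower genes. The median log2 fold change over all listed genes was -0.04.

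The largest rises fell into 2 kinds by their level in the other groups. The first kind had higher levels under drought than in watered plants in both regions and at both ages. Sevir.6G120300 (chromosome 6, 18770368 to 18773839) stood at 19.0 FPKM in drought day 9 stems and 0.247 FPKM in watered day 6 stems, a log2 ratio of 6.27 per the authors' deposited table (q = 0.0169). It reached 5.32 FPKM in drought day 6 stems and 0.435 FPKM in watered day 9 stems, although the drought and watered stems of day 9 were not called apart (q = 0.312 in the authors' deposited table). Crowns held 11.9 and 1.60 FPKM under drought at days 9 and 6 against 0.198 and 0.242 FPKM in watered plants. Sevir.5G302500 (chromosome 5, 34362836 to 34363959) stood at 232 FPKM in drought day 9 stems and 5.76 FPKM in watered day 6 stems, with a log2 ratio of 5.33 in the authors' deposited table (q = 0.00091). Its level in watered day 9 stems was 5.53 FPKM, close to that of the younger watered stem, while drought day 6 stems held 51.9 FPKM.

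The second kind was lowest in the watered day 6 stem and stood far above that level in all 4 crown groups. Sevir.8G220300 (chromosome 8, 35716036 to 35717735) had 381 FPKM in drought day 9 stems, 104 in watered day 9 stems, 44.5 in drought day 6 stems and 5.59 in watered day 6 stems, and between 353 and 595 FPKM in the 4 crown groups. Its log2 ratio between the drought day 9 and the watered day 6 stem was 6.09 in the authors' deposited table (q = 0.00091). Sevir.6G195800 (chromosome 6, 30739329 to 30740995) had 49.6 FPKM in drought day 9 stems and 0.898 FPKM in watered day 6 stems (log2 ratio 5.79 in the authors' deposited table, q = 0.00091), and 44.3 to 84.1 FPKM in crowns. In Sevir.8G220300 and Sevir.6G195800 the drought day 9 stem came within the range of the crown groups, and the other 3 stem groups lay below it. Sevir.9G102300 (chromosome 9, 6206320 to 6209830) reached 53.4 FPKM in drought day 9 stems, against 0.973 FPKM in watered day 6 stems (log2 ratio 5.78 in the authors' deposited table, q = 0.00091), with 30.5 to 45.1 FPKM in crowns. Sevir.8G211900 (chromosome 8, 34768918 to 34770734) had 19.2 FPKM in drought day 9 stems and 0.363 FPKM in watered day 6 stems (log2 ratio 5.73 in the authors' deposited table, q = 0.0337), with 18.4 to 33.7 FPKM in crowns. In all 6 genes with the largest rises the drought day 9 stem lay within or above the range of the crown groups. Watered crowns held at least 18.4 FPKM of each of the 4 genes of the second kind and at most 7.58 FPKM of the 2 genes of the first kind.

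Of the 6 largest falls, 5 were genes that every crown group held at a lower level than the watered day 6 stem. Sevir.2G057600 (chromosome 2, 4524401 to 4525226) had 4.84 FPKM in drought day 9 stems and 199.6 FPKM in watered day 6 stems, with a log2 ratio of -5.37 in the authors' deposited table (q = 0.00091). Watered day 9 and drought day 6 stems lay between these values, at 27.7 and 72.3 FPKM. A neighbour of this gene, Sevir.2G057800 (chromosome 2, 4542912 to 4543464), had 1.28 FPKM in drought day 9 stems and 26.4 FPKM in watered day 6 stems (log2 ratio -4.37 in the authors' deposited table, q = 0.0142). Sevir.2G089300 (chromosome 2, 7909518 to 7910287) had 0.826 and 30.1 FPKM in drought day 9 and watered day 6 stems (log2 ratio -5.19 in the authors' deposited table, q = 0.0202). Drought day 9 stems had 4.03 FPKM of Sevir.9G471800 (chromosome 9, 48460163 to 48460972), against 76.1 FPKM in watered day 6 stems (log2 ratio -4.24 in the authors' deposited table, q = 0.00091). For Sevir.7G272100 (chromosome 7, 30364871 to 30370959) these levels were 6.35 and 86.8 FPKM (log2 ratio -3.77 in the authors' deposited table, q = 0.00091). Crowns held at most 5.16 FPKM of Sevir.9G471800 and at most 2.91 FPKM of Sevir.7G272100. The other, Sevir.9G258700 (chromosome 9, 21062915 to 21063559), differed from the others in that crowns held up to 26.5 FPKM of it, and it had 1.47 FPKM in drought day 9 stems and 21.9 FPKM in watered day 6 stems (log2 ratio -3.89 in the authors' deposited table, q = 0.00525).

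Across all genes the drought day 9 stem lay farther from the watered day 6 stem than the watered day 9 stem did. Over the 16867 genes listed in all 6 tables between stem groups, the root mean square difference in log2(FPKM + 1) between drought day 9 and watered day 6 stems was 0.723. Between watered day 9 and watered day 6 stems it was 0.534, and between drought day 9 and drought day 6 stems 0.546. The drought day 9 stem lay nearest to the watered day 9 stem, at 0.370, and drought and watered stems at day 6 lay 0.322 apart. These distances describe group values and were not tested.

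The called genes were graded over the 4 stem groups. Called higher genes had median levels of 15.7 FPKM in drought day 9 stems, 11.3 in watered day 9 stems, 8.35 in drought day 6 stems and 5.94 in watered day 6 stems. For called lower genes the medians were 12.4, 17.0, 24.2 and 30.7 FPKM in the same order of groups. Both lists were chosen by the 2 groups at the ends of these series, which fixes the ends but not the order of the 2 groups between them. For the called higher genes, the median log2 ratio was 0.85 for watered day 9 over watered day 6 stems, 0.42 for drought over watered stems at day 9, 0.81 for day 9 over day 6 under drought, and 0.44 for drought over watered stems at day 6. The matching medians of the called lower genes were -0.83, -0.44, -0.94 and -0.34. Not every called gene was listed in each pair, so the medians rest on differing sets of genes. In the same order of pairs, they cover 1398, 1525, 1525 and 1297 higher genes and 2351, 2234, 2306 and 2351 lower genes. Each of these 4 pairs shares a group with the pair that chose the genes, and the values stand side by side only.

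One stem pair has no library in common with the drought day 9 and watered day 6 stems, that of watered day 9 over drought day 6. It holds the same step in age and the opposite step in water supply, so that a gene with the same sign in both pairs has a mean difference between days that exceeds its mean difference between water supplies. Most called genes kept their sign there. Of the 1413 higher genes that were listed in it, 1248 (88.3%) were also higher in the watered day 9 stem, against 46.7% of all 17683 genes listed in both. Of 2320 lower genes, 2139 (92.2%) were lower, against 53.3% of all. Averaged over both water supplies, the higher genes had a median log2 difference between days of 0.81, and averaged over both days a median difference between drought and watered stems of 0.41. The lower genes had medians of -0.88 and -0.39, and all genes together -0.03 and -0.02. The lists were chosen on the sum of these 2 differences, so that the medians describe the lists.

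**Figure D1:**
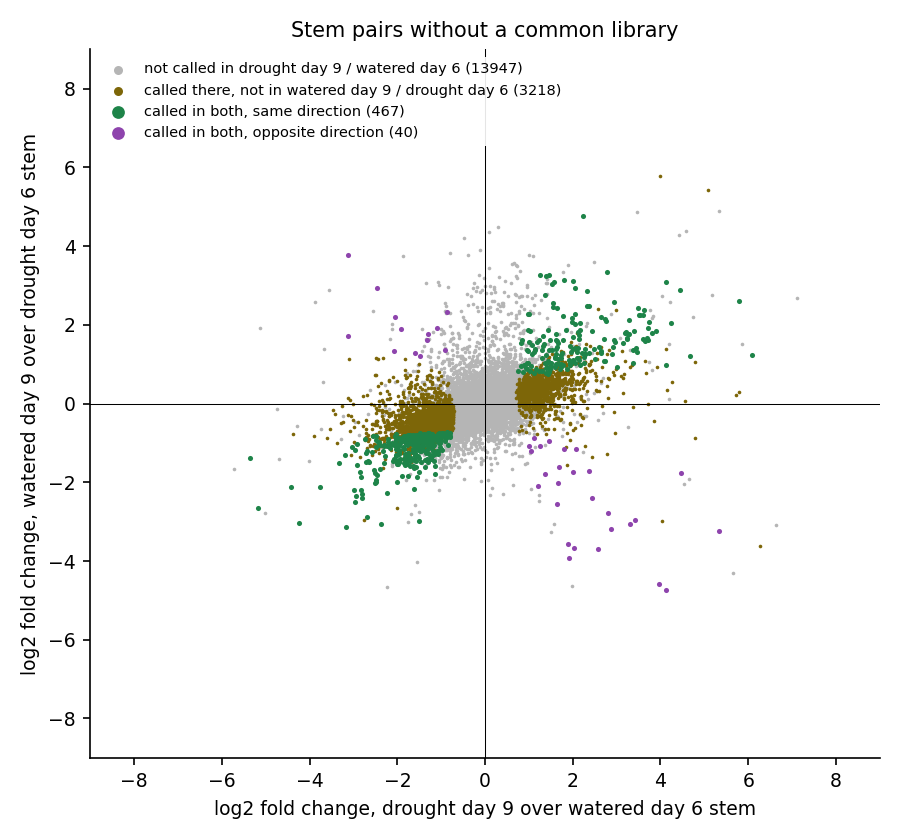
Each point is a gene, with its log2 fold change between drought day 9 and watered day 6 stems on the horizontal axis and that between watered day 9 and drought day 6 stems on the vertical axis, coloured by the authors' calls at q under 0.05; genes listed at 0 FPKM in any of these groups are not drawn. The points called in both pairs lie mostly in the quadrants where both changes have the same sign.

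Called in both pairs and in the same direction were 178 higher genes, which is 12.6% of the 1413 higher genes listed in both tables. They were 37.5% of the 475 genes called higher in the watered day 9 stem. In that pair 3.04% of all its genes and 2.69% of those listed in both tables were called higher. The lower list shared 291 genes, 12.5% of its 2320 genes listed in both tables. These were 70.5% of the 413 genes called lower in the watered day 9 stem, where 2.34% of all genes were called lower. Sevir.9G102300, named above, had 21.3 FPKM in watered day 9 stems and 3.47 FPKM in drought day 6 stems, for which the authors' deposited table gives a log2 ratio of 2.62 (q = 0.00091). Sevir.8G262000 (chromosome 8, 39807865 to 39808225) stood at 1318 FPKM in drought day 9 stems, 472 in watered day 9 stems, 240.1 in drought day 6 stems and 75.4 in watered day 6 stems. Its log2 ratio was 4.13 between drought day 9 and watered day 6 stems (q = 0.00091) and 0.97 between watered day 9 and drought day 6 stems (q = 0.0245), as the authors' deposited tables give them. Crowns held 719 to 1323 FPKM of it, so that the oldest drought stem lay at the top of the crown range.

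Sevir.1G356500 (chromosome 1, 39468303 to 39469499) and Sevir.8G220200 (chromosome 8, 35699084 to 35702062) were graded in the same way. The first had 87.6 and 4.61 FPKM and the second 128 and 5.05 FPKM in drought day 9 and watered day 6 stems, and the authors' deposited table gives log2 ratios of 4.25 and 4.67 (q = 0.00091 for each). Among the lower genes, Sevir.9G291600 (chromosome 9, 30818171 to 30819534) was abundant in the young stem. It stood at 173 FPKM in drought day 9 stems, 438 in watered day 9 stems, 1084 in drought day 6 stems and 1589 in watered day 6 stems, a log2 ratio of -3.20 between the first and the last in the authors' deposited table (q = 0.00091). Sevir.9G393200 (chromosome 9, 42723643 to 42725633) had 6.77 and 68.3 FPKM in drought day 9 and watered day 6 stems (log2 ratio -3.33 in the authors' deposited table, q = 0.00091). Sevir.1G257200 (chromosome 1, 32128209 to 32131952) was the exception to the grading, with 2.54 FPKM in drought day 9 stems, 1.54 in watered day 9 stems, 13.4 in drought day 6 stems and 22.9 in watered day 6 stems. Its log2 ratio between drought day 9 and watered day 6 stems was -3.17 in the authors' deposited table (q = 0.00091), and the drought and watered day 9 stems were not called apart (log2 ratio 0.73, q = 0.455 in that table).

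A small number of genes were called in opposite directions in the 2 pairs, which is the pattern of a drought difference larger than the age difference. These were 27 of the 1413 higher genes listed in both tables (1.91%, against 2.34% of all genes called lower in the watered day 9 stem). Among the 2320 lower genes listed in both they were 13 (0.560%, against 2.69% of the genes listed in both tables called higher). Sevir.1G012100 (chromosome 1, 939299 to 946263) stood at 128 FPKM in drought day 9 stems and 110.3 FPKM in drought day 6 stems, against 14.1 and 11.9 FPKM in the watered stems of these days. Its log2 ratio was 3.43 between drought day 9 and watered day 6 stems and -2.96 between watered day 9 and drought day 6 stems, with q = 0.00091 for each in the authors' deposited tables. The 2 drought stems lay far above the 2 watered stems, and within each water supply the 2 days lay close together. Drought crowns held 435 and 331 FPKM of it at days 9 and 6, watered crowns 25.7 and 20.6 FPKM.

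Sevir.5G091200 (chromosome 5, 7319439 to 7320228) had 38.7 and 24.3 FPKM in drought stems at days 9 and 6, against 0.919 and 2.22 FPKM in watered stems, and the authors' deposited tables give log2 ratios of 4.12 (q = 0.00091) and -4.73 (q = 0.00728) for the 2 pairs. Sevir.5G302500, named above, was the third of this kind, with a log2 ratio of -3.23 between watered day 9 and drought day 6 stems in the authors' deposited table (q = 0.00091). Among lower genes, 3 with opposite calls met the limit on level used for naming. Sevir.8G252300 (chromosome 8, 39034125 to 39037643) had 16.6 and 9.66 FPKM in drought stems at days 9 and 6, against 48.0 and 30.1 FPKM in watered stems. The authors' deposited tables give it log2 ratios of -0.86 (q = 0.0445) and 2.31 (q = 0.00091). Sevir.7G005000 (chromosome 7, 866087 to 866920) had 8.07 and 11.9 FPKM in drought stems, against 27.2 and 22.5 FPKM in watered stems of days 9 and 6, and Sevir.J006800 (scaffold_216, 3574 to 6040) had 22.2 and 19.9 FPKM against 74.7 and 47.6 FPKM. For these 2 genes the authors' deposited table gives log2 ratios between drought day 9 and watered day 6 stems of -1.48 (q = 0.0150) and -1.10 (q = 0.0096).

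Other genes were called between watered day 9 and drought day 6 stems, while the drought day 9 stem lay near the level of the watered day 6 stem. Of the 475 genes called higher in watered day 9 over drought day 6 stems and listed in both tables, 284 (59.8%) were not called between drought day 9 and watered day 6 stems, and 136 of these lay within 0.5 of 0 in log2 ratio. Of the 413 called lower, 95 (23.0%) were not called and 36 lay within 0.5. Among all 18431 genes listed for drought day 9 and watered day 6 stems, 14555 were not called and 21.0% were called. Both sets were thus called there more often than listed genes in general. The 136 genes had median levels of 5.46 FPKM in drought day 9 stems, 9.79 in watered day 9 stems, 3.06 in drought day 6 stems and 5.23 in watered day 6 stems. Their choice fixed that watered day 9 stems lay above drought day 6 stems, and that drought day 9 stems lay near watered day 6 stems. It did not fix where this near pair lay against the other groups, and the medians describe the choice. Whether the share not called differed between the directions was not tested.

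Sevir.8G169200 (chromosome 8, 29736825 to 29747850) is an example, at 18.2 FPKM in drought day 9 stems, 36.8 in watered day 9 stems, 4.25 in drought day 6 stems and 13.3 in watered day 6 stems. Its log2 ratio was 0.46 between drought day 9 and watered day 6 stems (q = 0.459) and 3.11 between watered day 9 and drought day 6 stems (q = 0.00091) in the authors' deposited tables. Sevir.5G175300 (chromosome 5, 18090547 to 18091288) had 40.9, 95.6, 12.7 and 35.4 FPKM in the same order of stem groups, and Sevir.3G417500 (chromosome 3, 49086353 to 49087110) had 21.9, 51.5, 9.00 and 16.6 FPKM. In all 3 genes each drought stem was below the watered stem of its day, and each day 9 stem above the day 6 stem of its water supply. All these differences were called except that between the day 6 stems for Sevir.3G417500 (the authors' q = 0.177). By level, the mirror image was found in Sevir.1G244600 (chromosome 1, 31077476 to 31078917), at 46.2 FPKM in drought day 9 stems, 26.6 in watered day 9 stems, 68.9 in drought day 6 stems and 49.6 in watered day 6 stems. Its day 6 stems were not called apart (the authors' q = 0.279), nor were its drought stems of both days (q = 0.175). Sevir.2G437000 (chromosome 2, 46523840 to 46527391) followed with 22.2, 13.9, 32.9 and 28.9 FPKM, and Sevir.1G264300 (chromosome 1, 32706781 to 32707949) with 22.1, 16.2, 41.9 and 20.5 FPKM. Drought and watered stems of Sevir.2G437000 were not called apart at day 9 (the authors' q = 0.135) or day 6 (q = 0.790). Its drought stems of both days were not called apart either (q = 0.214). For Sevir.1G264300 neither the watered stems of both days (q = 0.611) nor the day 9 stems (q = 0.514) were called apart. The same held for its drought stems of both days (q = 0.0575). For Sevir.1G264300 the crowns stood apart, with 462 FPKM in watered day 9 crowns against 35.4 to 70.0 FPKM in the other 3 crown groups.

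**Figure D2:**
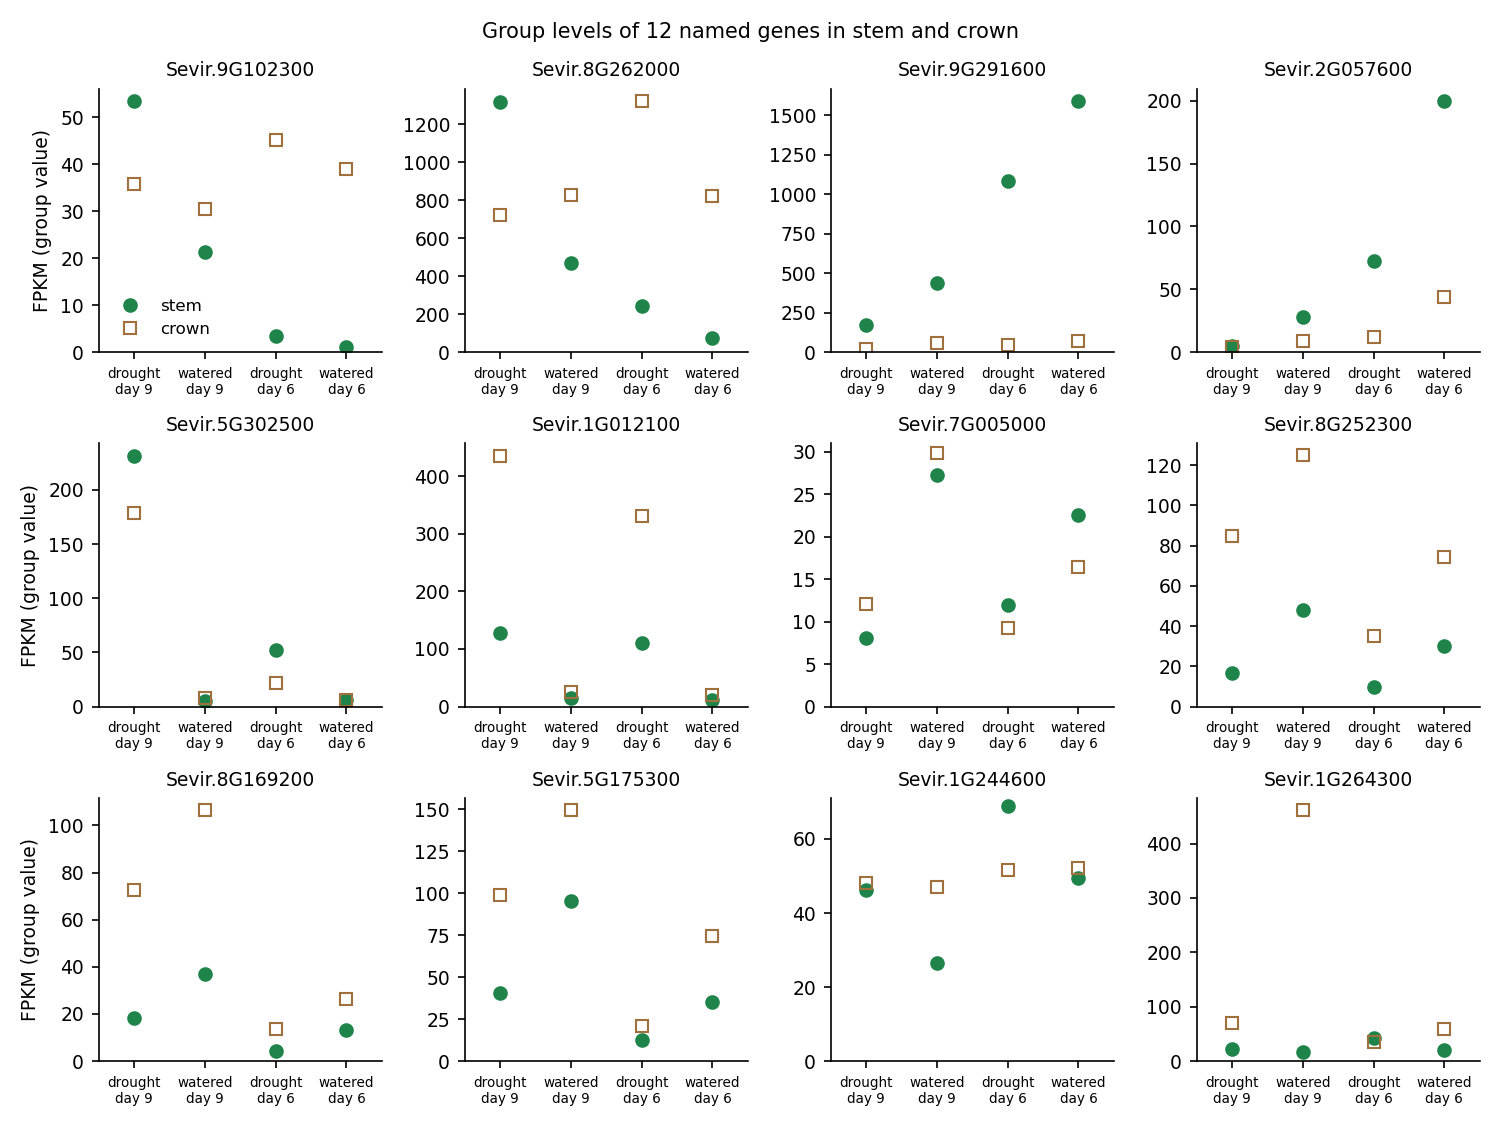
Group FPKM values (vertical axis, from 0) of 12 named genes in stem (filled circles) and crown (open squares) for drought day 9, watered day 9, drought day 6 and watered day 6 plants, 1 value per group. Top row, genes graded from the drought day 9 to the watered day 6 stem; middle row, genes separated by water supply; bottom row, genes whose drought day 9 stem was near the watered day 6 stem.

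The rises and falls were next set beside the difference between crown and stem, a step added after the values were seen. Most genes that rose had a higher level in crown than stem in drought day 6 plants, and most genes that fell had a higher level in the stem there. The drought day 6 crown and stem share no library with the drought day 9 and watered day 6 stems. However, the drought day 6 stem lay near the watered day 6 stem, at 0.322 in log2(FPKM + 1). The shares below are therefore not independent of how the genes were chosen. Of 1470 higher genes listed there, 1388 (94.4%) had the higher level in the crown, against 49.6% of all genes listed in both tables. Of 2313 lower genes, 2111 (91.3%) had the higher level in the stem, against 50.4% of all. Called higher in the crown were 508 of the higher genes, 34.6% of them and 50.4% of the 1008 crown-higher genes, where 6.44% of all its genes and 5.65% of those listed in both tables were called. Called higher in the stem were 1335 of the lower genes, 57.7% of them and 67.5% of the 1978 stem-higher genes, where 10.7% of all its genes and 11.1% of those listed in both were called. Opposite calls were 18 and 44 genes (1.22% and 1.90%).

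The median change was ordered by the size of the crown to stem difference. Where the stem of drought day 6 plants had over 4 times the level of the crown, the median log2 ratio of drought day 9 over watered day 6 stems was -1.60 over 310 genes. It was -1.09 for 1580 genes 2 to 4 times higher in the stem and -0.28 for 7095 genes up to 2 times higher in the stem. On the crown side it was 0.30 for 7736 genes up to 2 times higher in the crown, 1.00 for 826 genes 2 to 4 times higher, and 1.89 for 271 genes over 4 times higher. The 74 genes called at least 8 times higher in the drought day 6 crown had medians of 5.23 FPKM in drought day 9 stems, 2.75 in watered day 9 stems, 1.38 in drought day 6 stems and 1.14 in watered day 6 stems. Of these 74, 45 (60.8%) rose and 0 fell between the drought day 9 and watered day 6 stems, against 8.27% and 12.8% of all genes. Listed genes had at least 2.02 FPKM in the higher group. At a median of 1.14 FPKM in watered day 6 stems, many of the 74 could be listed only through the drought day 9 stem. Such genes could not fall, so these shares follow in part from the listing. In crowns the medians of the 74 genes were 27.1, 18.2, 20.0 and 12.5 FPKM in the same order. The drought day 9 stem thus held them at a level well below its own crown. Of 65 genes called at least 8 times higher in the stem, 60 (92.3%) fell. With the crown and stem of watered day 9 plants in their place, 20 of 94 genes at least 8 times higher in the crown rose (21.3%) and 10 fell (10.6%), at a median log2 ratio of 0.12, and 14 of 18 genes at least 8 times higher in the stem fell (77.8%). The part of tissue composition, including where crown and stem were cut apart, in these changes was not tested.

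**Figure D3:**
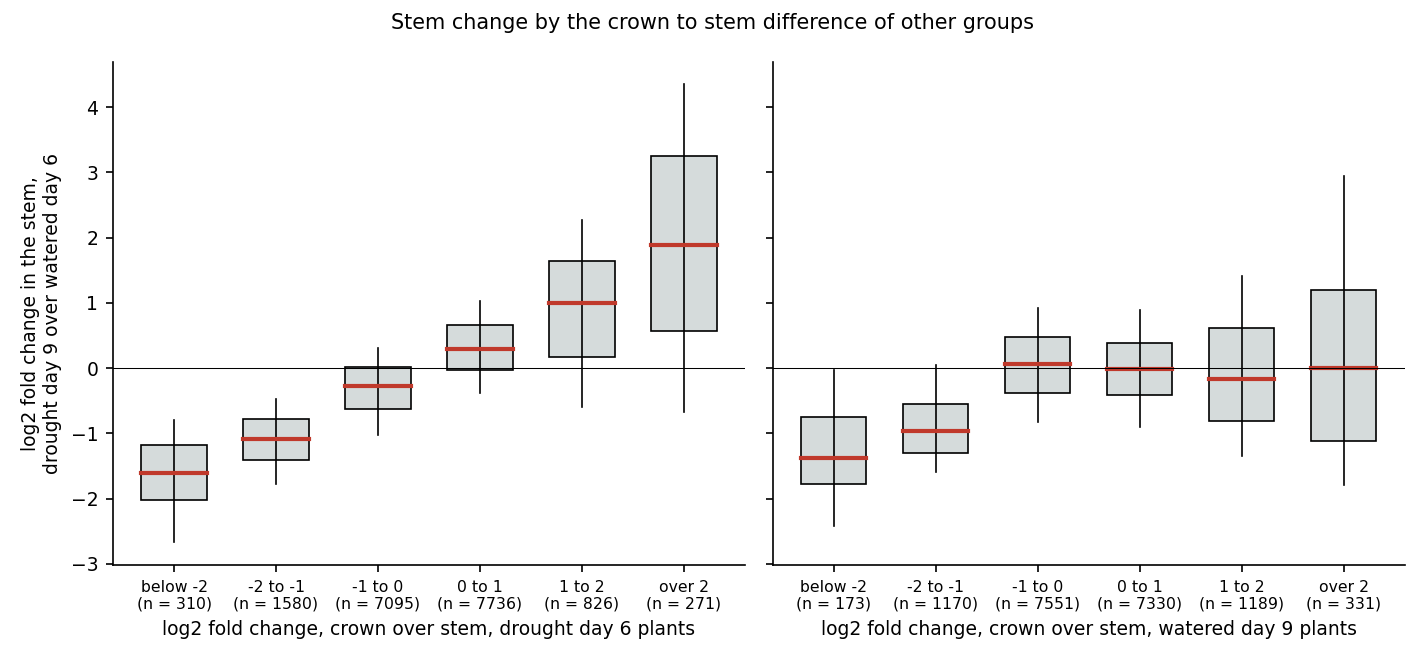
Log2 fold change between drought day 9 and watered day 6 stems (vertical axis) for genes grouped by their log2 fold change between crown and stem (horizontal axis) in drought day 6 plants (left) and watered day 9 plants (right); red lines are medians, boxes the middle 50% of the genes and lines the 10th to 90th percentile. The medians climb from -1.60 to 1.89 on the left, while on the right they are -1.38 and -0.96 for the genes over 4 times and 2 to 4 times higher in the stem and lie between -0.16 and 0.06 for the rest.

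With the crown and stem of watered day 9 plants, which also share no library with the 2 stem groups, the falling genes leaned to the stem, and the rising genes leaned to the crown by calls but not by sign. Of 2280 lower genes, 1438 (63.1%) were higher in the stem than in the crown, against 50.1% of all, and 773 were called so (33.9%). Called higher in the stem were 6.88% of all genes listed for that pair and 7.54% of those also listed for the drought day 9 and watered day 6 stems, and called higher in the crown were 12% and 8.64%. Opposite calls numbered 228 of the lower genes (10.0%), somewhat above the 8.64%. Of 1457 higher genes, 744 (51.1%) were higher in the crown, against 49.9% of all, and 204 were called so, which is 14.0% of them, against 8.64% of the genes listed in both, and 13.3% of the 1535 crown-higher genes. Called higher in the stem were 39 of the rising genes (2.68%), against 7.54% of the genes listed in both. Their median log2 ratio of crown over stem was 0.68 in drought day 6 plants and 0.02 in watered day 9 plants. The difference between the 2 crown and stem pairs was not tested.

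The crown went through the same double step with a partly matching set of genes. In drought day 9 over watered day 6 crowns, 8.35% of all genes were called higher and 5.64% lower, and 5.98% and 6.16% of the genes listed in both tables. Of 2215 falling stem genes listed there, 1676 (75.7%) had the lower level in the drought day 9 crown, against 48.8% of all genes listed in both, and 662 were called lower, 29.9% of them and 60.3% of the 1097 genes lower in that crown. Of 1502 rising stem genes, 877 (58.4%) had the higher level in the drought day 9 crown, against 51.2% of all, and 231 were called higher, 15.4% of them and 21.7% of the 1065 crown genes. Opposite calls were found for 47 rising genes (3.13%) and 67 falling genes (3.02%). The median log2 ratio in the crown was 0.13 for the rising and -0.55 for the falling stem genes. Crown and stem come from the same 3 repeats, and deviations of a repeat common to both regions were not separated.

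Genes called in the crown and listed in all 6 stem tables were used to place the drought day 9 stem against the watered stems. Watered crowns had 1661 genes called higher at day 9 than at day 6 (8.56%) and 388 called lower (2%), of which 835 and 374 were listed in all stem tables and could be followed. The listing thus left out a far larger part of the age-raised genes. Genes low in both day 6 stems could be missing from that pair even where they rose by day 9, as Sevir.8G210100 was. The effect of this on the medians and shares below was not tested. The 374 age-lowered crown genes had a median difference from the watered day 6 stem of -1.10 in log2(FPKM + 1) in drought day 9 stems and -0.71 in watered day 9 stems. In drought day 6 stems it was -0.20. Of the 374, 247 (66.0%) were called lower in drought day 9 over watered day 6 stems, against 13.2% of the 16867 genes followed. For the 835 age-raised crown genes the medians were -0.18 in drought day 9 stems, 0.15 in watered day 9 stems and -0.26 in drought day 6 stems. Only 61 of them (7.31%) were called higher in drought day 9 over watered day 6 stems, near the 7.60% of all genes followed, and 143 (17.1%) were called lower. By these medians, crown genes that fell with age lay farther down in the drought day 9 stem than in the watered day 9 stem. Crown genes that rose with age lay slightly below the watered day 6 stem in the drought stems of both days, and no lower at day 9 than at day 6.

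Genes called with drought in the day 9 crown and listed in all stem tables were mostly displaced in the same direction in the drought day 9 stem. Among the crown genes, 440 were called higher (2.2%) and 834 lower (4.17%) in drought over watered plants at day 9. Of the 204 higher genes followed into the stem, 63 (30.9%) were called higher in drought day 9 over watered day 6 stems and 15 (7.35%) lower. Their median difference from the watered day 6 stem was 0.37 in drought day 9 stems, -0.27 in watered day 9 stems and 0.14 in drought day 6 stems. Of the 502 lower genes followed, 288 (57.4%) were called lower and 7 (1.39%) higher, with medians of -1.07, -0.37 and -0.34 in the same order. Of all 16867 genes listed in the stem tables, 7.60% were called higher and 13.2% lower in drought day 9 over watered day 6 stems.

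**Figure D4:**
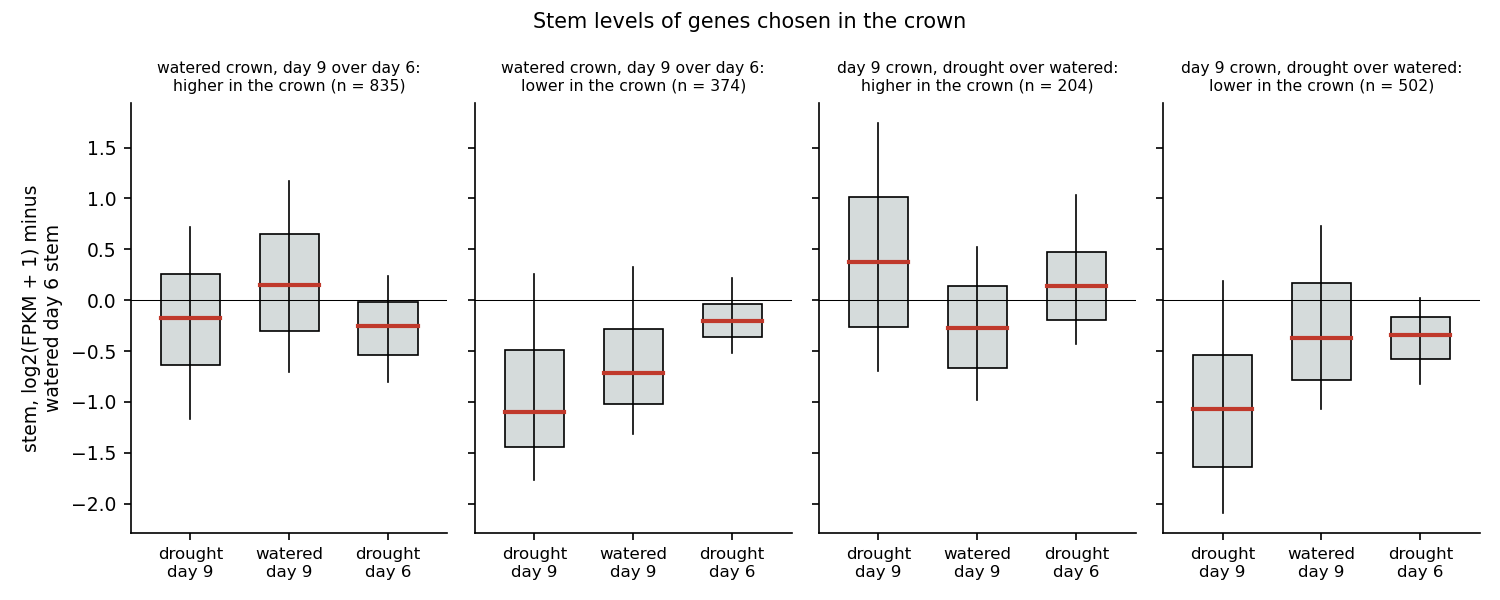
Difference in log2(FPKM + 1) from the watered day 6 stem (vertical axis) in drought day 9, watered day 9 and drought day 6 stems, for genes called in the crown with age in watered plants (left pair of panels) or with drought at day 9 (right pair); red lines are medians, boxes the middle 50% and lines the 10th to 90th percentile of genes. Only genes listed in all stem tables are shown. The age-lowered crown genes lie lowest in drought day 9 stems, at a median of -1.10. The age-raised ones lie at -0.18 there, 0.15 in watered day 9 stems and -0.26 in drought day 6 stems.

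Some called genes lay next to each other in the order of listed genes on the chromosomes. Stretches in which at least 3 listed genes in a row had the same call numbered 67, of which 21 were higher and 46 lower, with 224 genes in all. Of all listed genes 8.27% were called higher and 12.8% lower, so some runs arise in any order of genes. How many was not worked out, and more runs than that were not tested for. Unlisted genes between the members of a run were passed over. The longest was a run of 8 rising genes on chromosome 8 between 35580664 and 35769657, from Sevir.8G219500 to Sevir.8G220700, which includes Sevir.8G220200 and Sevir.8G220300. Their log2 ratios between drought day 9 and watered day 6 stems ranged from 1.82 to 6.09 in the authors' deposited table (all q = 0.00091). In drought day 9 and watered day 6 stems, Sevir.8G220700 had 272 and 35.5 FPKM, Sevir.8G220000 had 141 and 10.7 FPKM, and Sevir.8G219500 had 67.6 and 11.2 FPKM. Levels were lower in Sevir.8G219600, at 36.7 and 10.4 FPKM, in Sevir.8G220500, at 18.6 and 1.29 FPKM, and in Sevir.8G220400, at 15.9 and 1.53 FPKM. In each of the 8 genes the drought day 9 stem was the highest of the 4 stem groups and the watered day 6 stem the lowest.

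**Figure D5:**
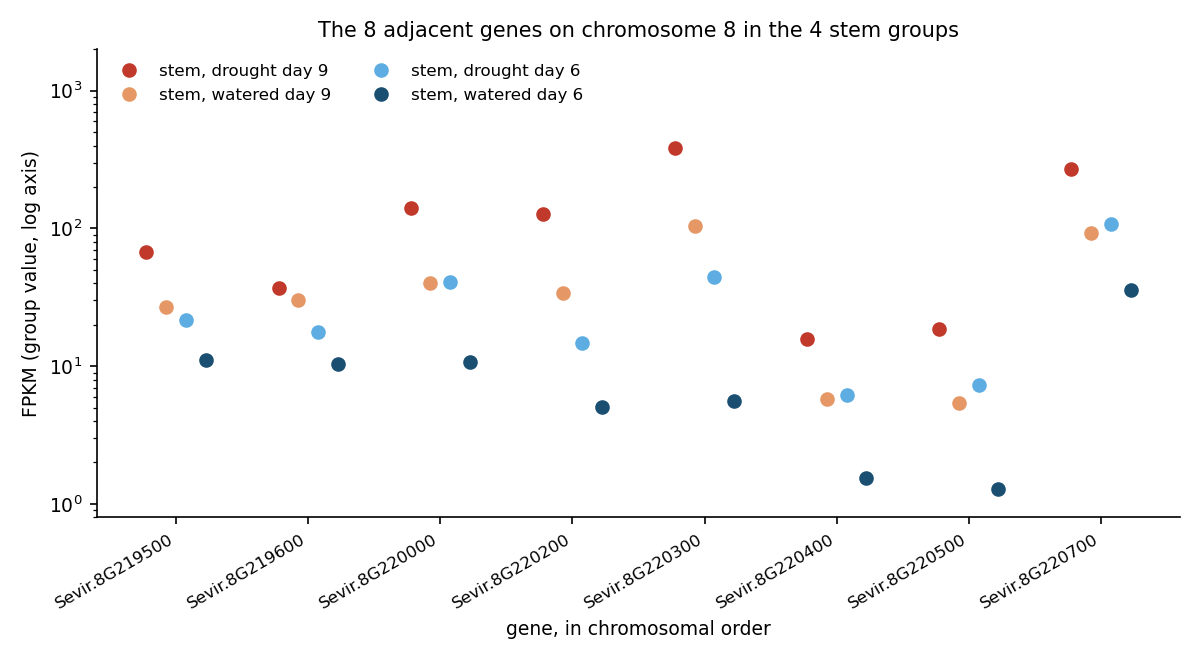
Group FPKM values on a log axis for the 8 listed genes in a row of the chromosome 8 run, in chromosomal order, in drought day 9, watered day 9, drought day 6 and watered day 6 stems, 1 value per group. The drought day 9 stem is highest and the watered day 6 stem lowest for every gene, and the 2 groups between them change places from gene to gene.

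The next longest runs had 5 genes each, both on chromosome 1. They and the genes in them were chosen after their values were seen. The run from Sevir.1G356200 to Sevir.1G356600 (39455635 to 39490357) rose, with log2 ratios between 1.28 and 4.25 in the authors' deposited table, and contains Sevir.1G356500. In Sevir.1G356200 the levels were 10.2 FPKM in drought day 9 stems and 1.09 FPKM in watered day 6 stems. The run from Sevir.1G323400 to Sevir.1G324100 (36967658 to 37039398) fell, with log2 ratios between -1.97 and -0.75 in the authors' deposited table. Sevir.1G324100 in it stood at 24.2 FPKM in drought day 9 stems and 91.0 FPKM in watered day 6 stems. Genes of a run can be related copies, and how the authors' counting divided reads between similar genes is not given in the sources used here.

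By chromosome, the share of listed genes that rose ranged from 7.46% on chromosome 1 to 9.90% on chromosome 7, and the share that fell from 11.9% on chromosome 7 to 13.6% on chromosome 8. The share that fell was higher among abundant genes. Among the 4608 genes with the lowest mean level, 6.64% fell and 8.66% rose, and among the 4608 with the highest mean level, of at least 28.2 FPKM, 21.4% fell and 7.18% rose. The falling genes spanned a median of 3010 bases, introns included, against 3716 for the rising and 3650 for the uncalled genes, counted without genes that have a position entry in common with another. Longer and more abundant genes give more reads, and the part of read number in these shares was not tested.

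Some genes were listed at 0 FPKM in one group. Listed genes had at least 2.02 FPKM in the higher group, so the direction of such a gene was fixed by its listing. In watered day 6 stems 28 genes stood at 0, of which 24 were called higher in drought day 9 stems, and 2 stood at 0 in drought day 9 stems and were called lower. These 2, picked here with their values known, had 2.48 FPKM (Sevir.9G227800) and 2.32 FPKM (Sevir.9G574900) in watered day 6 stems. The most abundant of the genes at 0 was Sevir.8G210100 (chromosome 8, 34499523 to 34501272), with 142 FPKM in drought day 9 stems, 67.5 in watered day 9 stems and 2.15 in drought day 6 stems, and listed at 0 in watered day 6 stems (q = 0.00091 in the authors' deposited table). Crowns held 24.0 to 59.8 FPKM of it. Next was Sevir.3G268100 (chromosome 3, 21912496 to 21917228), which has its position entry in common with another gene, at 14.9 FPKM in drought day 9 stems and listed at 0 in the other 3 stem groups, and it was not called (q = 0.501 in the authors' deposited table).

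The 3 most abundant genes were the same in both groups and none was called. Sevir.9G098200 (chromosome 9, 5988067 to 5988887) stood at 24734 FPKM in drought day 9 stems and 8834 FPKM in watered day 6 stems (log2 ratio 1.49 in the authors' deposited table, q = 0.176). Sevir.7G168800 (chromosome 7, 23354262 to 23370720), whose position entry another gene also has, stood at 18634 and 38642 FPKM (log2 ratio -1.05 in the authors' deposited table, q = 0.339). Sevir.9G029800 (chromosome 9, 1659088 to 1659311) stood at 15569 and 9565 FPKM (log2 ratio 0.70 in the authors' deposited table, q = 0.449). A missing call here does not show equal levels, since the median log2 ratio of called higher genes, 1.28, was smaller than that of Sevir.9G098200.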

How the data were processed

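Stem and crown RNA of Setaria viridis was sequenced after ribosomal RNA depletion, in strand-specific libraries per the labels. FastQC, cutadapt and Cuffdiff appear, without versions, among the tools of the submitters' processing notes. For aligner and genome build, the sources used here give no name. The deposited tables give the authors' FPKM per group. Per the file headers they also hold the log2 fold change of the 2 FPKM values, and a p-value and q-value for each gene. Checks showed that a group had the same value in every table (0 differences), that fold changes matched the FPKM ratios within 4.8e-05, and that q-values lay within 5.3e-07 of a Benjamini-Hochberg adjustment over the 531416 rows of all 28 tables. The smallest deposited p-value was 5e-05.

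No test of libraries was possible on group values, so the authors' calls at q under 0.05 were counted. Listed genes had at least 2.02 FPKM in the higher group, and a gene not listed was treated as not tested. Calculations used Python 3.11.15, numpy 2.4.6 and pandas 2.3.3, and the counting functions were tested on simulated data. Named genes had q under 0.05, both groups above 0 and at least 14.9 FPKM (the median) in the higher group. Within these, the 6 largest changes each way were taken, then 3 each way per class of the crossed stem pair, genes with no call here and a log2 ratio within 0.5 of 0, the 3 most abundant genes, the longest run, and the 2 highest genes listed at 0 in 1 group. Against the RefSeq name table for Setaria_viridis_v4.0, which lists 34587 genes, 0 identifiers matched, so the marker and pathway lists had no member. Positions are those in the files. The members and lists were chosen with earlier results of these data known. Alternatives are given in the closing section.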

Additional observations from a re-analysis of the deposited data

How the results depend on the processing

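The limits of these counts are those of group values: no library could be left out, and no depth or spread can be given. No paired analysis was possible because the deposited tables hold 1 value per group. At q under 0.01, 762 genes were higher and 1447 lower in drought day 9 over watered day 6 stems, and 784 were higher when the larger level had to reach the median. An adjustment over these 18431 genes gave 1762 higher and 2614 lower. At q under 0.01 in both stem pairs without a common library, 69 higher and 96 lower genes were called the same way and 4 lower genes the opposite way. At q under 0.01 the crown had 103 higher and 371 lower genes in the same direction, the drought day 6 crown and stem tables had 263 and 797, and 17 runs were left. With a pseudocount of 0.1 FPKM the distances were 0.801 (drought day 9 to watered day 6 stems), 0.593 (watered day 9 to watered day 6) and 0.419 (drought to watered at day 9). With a mean of at least 10 FPKM the first was 0.740 and the last 0.354. For age-raised crown genes the medians in drought and watered day 9 stems were -0.21 and 0.17 with that pseudocount, and -0.15 and 0.27 for crown genes at q under 0.01. For age-lowered crown genes they were -1.15 and -0.74, and -1.17 and -0.76. No direction turned round under these alternatives, and fewer calls follow from a stricter limit. Leaving out genes with a common position entry and the comparison of crown and stem were added after seeing the data.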
